A study of Sus scrofa with 42 samples.

Results

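The 2-cell to 4-cell step of parthenogenetically activated (PA) pig embryos was described with 13 single blastomeres of 6 embryos, out of 42 single cells of 20 embryos in the series. The series holds PA and in vitro fertilized (IVF) embryos at the 1-, 2-, 4- and 8-cell stages, 8 groups in all, each cell measured by RNA-seq as FPKM (fragments per kilobase of gene, scaled to mapped reads, a level per length that is relative within a cell). Oocytes came from gilt ovaries of a slaughterhouse, were matured in vitro and stripped of cumulus cells. PA oocytes received an electric pulse and then 6-dimethylaminopurine and cytochalasin B, and had no sperm. IVF oocytes were incubated with fresh semen, and the strain and the number of gilts are not given in the sources used here. Embryos of 2 cells were taken 27 h and those of 4 cells 48 h after activation or, for IVF, after the incubation with sperm ended, and culture was in PZM-3 medium for all groups.

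The labels give 6 PA 2-cell blastomeres, 2 from each of 3 embryos, and 9 PA 4-cell blastomeres of 3 embryos. Of the PA 4-cell columns, 1-4 and 2-1 (embryo, then blastomere) were left out, because they nearly repeat the columns of PA 2-cell-1-2 and PA 2-cell-2-1. Pearson's r of log2(FPKM + 1) was 0.999 in both pairs and at most 0.931 in the other 859 pairs of cells. The left-out columns had r of 0.689 to 0.73 with the other PA 2-cell blastomeres and 0.384 to 0.511 with the other PA 4-cell blastomeres. This left 7 PA 4-cell blastomeres, 1 of embryo 1 (1-3) and 3 each of embryos 2 and 3. FPKM were averaged over the blastomeres of an embryo, so that 3 embryos stood against 3, and embryo 1 of the 4-cell stage rests on a single cell. With all 9 labelled blastomeres kept, 31 genes were called up and 1 down in place of the 93 and 507 given below.

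An early embryo starts with RNA and protein that the oocyte stored. These maternal transcripts are cleared in steps, through deadenylation and decay, while the embryo's own genome is switched on, in the pig mainly around the 4-cell stage. A parthenote has only maternal chromosomes and goes through the same cleavages without any contribution of a sperm.

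The PA 2-cell blastomeres had 11253281 to 15648545 reads on genes and the PA 4-cell blastomeres 7448803 to 10276890. The 13 protein-coding mRNAs of the mitochondrial genome took 11.2% to 15.2% of all FPKM in the 2-cell blastomeres. They took 17.5% to 22.5% in the blastomeres of 4-cell embryo 2 and 50.7% to 54.0% in those of embryos 1 and 3. Of 9 oocyte markers in the table, BTG4, BMP15 and ZP4 were above 9 FPKM in all 6 embryos and GDF9 above 1 FPKM, with BMP15 at 166 ± 47.7 FPKM (SD, n = 3 embryos) in 2-cell and 110.5 ± 65.6 in 4-cell embryos. ZP2, ZP3, OOEP, ZAR1 and NPM2 were each below 1 FPKM in some embryos, with ZAR1 at most 1.0 FPKM and ZP3 at most 0.0804 FPKM in 2-cell embryos. Of the cumulus and granulosa cell markers, 12 are in the table. Their summed FPKM per embryo, as a mean over its blastomeres, was 7.79 to 14 in 2-cell and 1.38 to 15.1 in 4-cell embryos. GJA1, COL3A1, SERPINE2 and INHBA of that list were at 0 in all 13 blastomeres. NLRP5 was not analysed here.

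Of 8033 genes tested, 93 rose (1.16% of those tested) and 507 fell (6.31%), together 7.47%, from the 2-cell to the 4-cell stage, at an adjusted p below 0.05 and a change of at least 2-fold. The rising genes went from a median of 0.993 FPKM in 2-cell embryos to 52.2 FPKM in 4-cell embryos, and the falling genes from 20.1 to 0.368 FPKM, while the median over all genes tested went from 2.07 to 0.508 FPKM. At the 2-cell stage 47 of the 93 risers were below 1 FPKM, beside 3102 of all 8033 genes tested. At the 4-cell stage 323 of the 507 fallers were below 1 FPKM, beside 4424 of all genes tested. At an unadjusted p below 0.05, 323 genes were higher and 1400 lower. The embryos of both stages did not overlap for 85 of the 93 risers and 487 of the 507 fallers, against 3.52% of all genes that were higher and 20.4% that were lower without overlap. The calls rest on these same embryo values, so the separation of called genes follows largely from their choice and is a description. Among embryos left out in turn, PA 4-cell embryo 1 moved the count of risers most, with 173 genes called up and 395 down without it. A fit of only the PA 2-cell and 4-cell embryos, with no spread borrowed from other groups, called 14 genes up and 38 down.

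The balance of rise and fall depended on the scaling. Relative to FPKM as deposited, the median log2 change of all genes was -0.45, and it was -0.47 when nuclear genes were rescaled to the same total. When each cell was scaled by its median ratio over 1076 nuclear genes above 0 in all 40 cells used, the median was 0.16, a gene moved upwards by a median of 1.10, and 610 genes were called up (8.29%) and 107 down (1.45%). Of the genes behind that scaling, 37.0% to 60.7% were below 1 FPKM in a 4-cell blastomere, against 9.29% to 20.9% in 2-cell blastomeres. Under all 3 scalings, 89 genes were called up (1.11%), which are all of the nuclear risers, and 106 were called down (1.32%). None of the risers and 28 of the fallers took the opposite sign under median-ratio scaling.

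**Figure D1:**
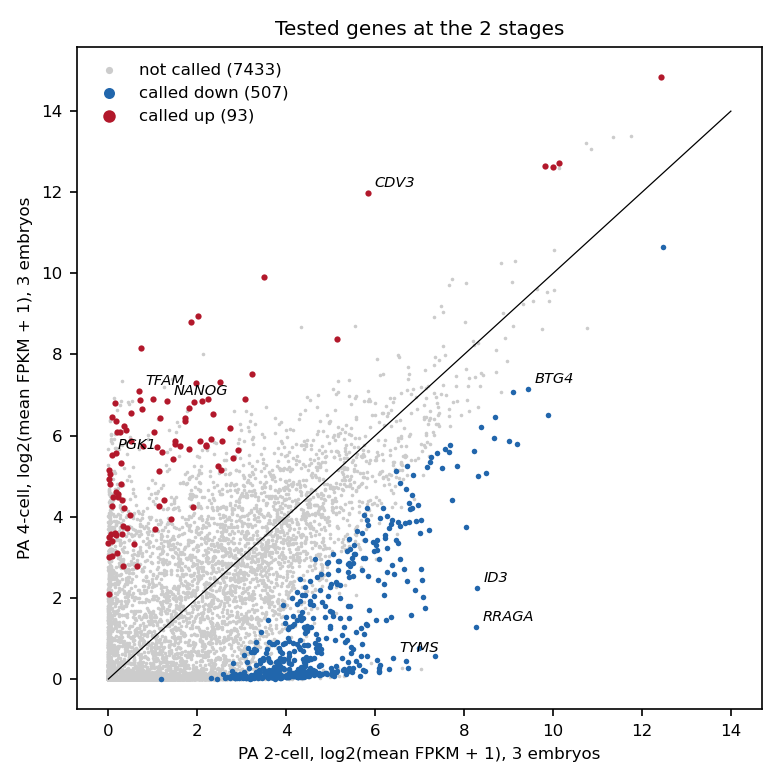
Each point is 1 of the 8033 tested genes, with log2(mean FPKM + 1) of 3 PA 2-cell embryos on the x axis and of 3 PA 4-cell embryos on the y axis. The 93 genes called up (red) lie mostly near the left edge and the 507 called down (blue) near the bottom. Many of all genes tested were low too, with 3102 below 1 FPKM at the 2-cell and 4424 at the 4-cell stage.

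CDV3, a protein whose role is little known, had the largest rise among genes with a symbol. It had 81.2, 81.3 and 7.28 FPKM in the 2-cell embryos and 3753, 4321 and 3957 FPKM in the 4-cell embryos, a log2 change of 6.71 with a standard error of 1.07 (adjusted p = 0.00089). In 6 of the 7 4-cell blastomeres it lay between 2452 and 6429.6 FPKM, and in PA 4-cell-3-4 it was at 6.29 FPKM. That blastomere thus stood at the level of the 2-cell stage for this gene. TFAM, which packages mitochondrial DNA and drives its transcription, had 1.29, 0.468 and 0.104 FPKM in 2-cell and 185, 105 and 116 FPKM in 4-cell embryos (log2 change 6.42, adjusted p = 3.1e-05). SELENOS, a selenoprotein of the endoplasmic reticulum membrane, went from 0.0783, 1.69 and 0.136 FPKM to 153, 156 and 40.2 FPKM (log2 change 6.07, adjusted p = 0.00017). Among single blastomeres, TFAM was at 3.00 FPKM in PA 4-cell-2-4 and 0.142 FPKM in 3-1, and SELENOS at 0.0929 FPKM in 3-4. For all of these genes every 4-cell embryo was above every 2-cell embryo, which is how they were chosen. In the fit of only the PA 2-cell and 4-cell embryos, CDV3 (adjusted p = 0.067) and NANOG (adjusted p = 0.051) were not called, and with them 11 of the 28 genes with the largest rise or fall lost the call.

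The sequences of the 3 promoters are shown because these genes had the largest rises among genes with a symbol. Each is the 250 bases before the gene start in Sscrofa11.1, written 5′ to 3′ on the strand of the gene, with matches to the searched motifs in capitals. The CDV3 promoter lies at chr13:74704844-74705093 on the plus strand, that of TFAM at chr14:92279732-92279981 on the minus strand and that of SELENOS at chr1:139836954-139837203 on the minus strand.
CDV3: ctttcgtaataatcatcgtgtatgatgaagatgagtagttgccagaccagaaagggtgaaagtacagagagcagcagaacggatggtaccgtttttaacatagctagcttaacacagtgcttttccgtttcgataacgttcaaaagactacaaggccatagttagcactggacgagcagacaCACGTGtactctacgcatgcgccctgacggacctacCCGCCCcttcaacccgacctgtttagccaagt
TFAM: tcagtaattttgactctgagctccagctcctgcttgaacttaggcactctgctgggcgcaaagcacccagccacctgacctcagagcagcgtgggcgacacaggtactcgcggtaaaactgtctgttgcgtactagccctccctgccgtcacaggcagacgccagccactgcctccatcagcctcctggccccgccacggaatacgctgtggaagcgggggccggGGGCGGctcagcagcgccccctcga
SELENOS: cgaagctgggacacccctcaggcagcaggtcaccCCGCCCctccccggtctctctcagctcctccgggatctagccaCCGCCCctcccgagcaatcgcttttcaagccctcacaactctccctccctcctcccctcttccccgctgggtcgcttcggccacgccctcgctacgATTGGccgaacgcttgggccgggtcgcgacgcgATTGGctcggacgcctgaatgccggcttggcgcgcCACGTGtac

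The motifs were searched on both strands in the 250 bases before and 50 bases after the start of 8012 tested genes. CCAAT, the box bound by NF-Y, was in 55.1% of the promoters of risers (49 of 89), in 36.1% of those of fallers and in 37.0% of all. In the 250 bases before the start alone the shares were 49.4%, 32.5% and 33.5%. GGGCGG, the GC box, was in 56.2%, 56.0% and 54.3%, and TATAAA in 11.2%, 9.47% and 9.61%. TAATCC, the OTX motif, was in 10.1%, 5.92% and 6.22%, CACGTG, the E-box, in 10.1%, 9.86% and 9.04%, and CCGGAA, the ETS core, in 20.2%, 24.1% and 22.8%. The palindromic motif of NRF1 was in none of the 89 promoters of risers, in 2.17% of fallers and in 1.42% of all. The median GC content was 56.3% for risers, 59.0% for fallers and 59.3% for all. These shares are a description of letters in the sequence, without a test. In SELENOS, CCAAT stood 77 and 44 bases before the start and CACGTG 9 bases before it, whereas the printed TFAM promoter held only the GC box, 25 bases before the start.

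Other risers with a symbol covered several functions. PSMB7, a catalytic subunit of the proteasome, went from 0.132 ± 0.058 to 80.9 ± 55.2 FPKM (log2 change 5.97, adjusted p = 0.0092). PABPC1, which binds poly(A) tails, went from 0.119 ± 0.167 to 46.5 ± 18.9 FPKM (5.35, adjusted p = 0.00033), and RPS16, of the small ribosomal subunit, from 2.82 ± 4.14 to 113 ± 17.9 FPKM (5.45, adjusted p = 0.0095). TMSB10, which holds actin monomers, rose by 4.95 and had 22.4 to 130.2 FPKM in all 7 4-cell blastomeres. CDC26, a subunit of the anaphase-promoting complex, rose by 4.81 and had 44.5 to 174 FPKM in all 7. These last 2 genes were therefore high in every 4-cell blastomere, although CDC26 overlaps SLC31A1 and PRPF4 in the annotation and its reads cannot be told apart from theirs without strand. SUPT4H1, a part of the elongation factor DSIF, went from 0.213 ± 0.189 to 38.9 ± 29.3 FPKM (4.77, adjusted p = 0.012).

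PGK1, an X-linked enzyme of glycolysis, rose on the strength of few cells. Its 2-cell embryos had 0.0303 to 0.0895 FPKM, and its 4-cell embryos 4.94, 76.7 and 53.8 FPKM (log2 change 4.80, adjusted p = 0.0036). The signal came from PA 4-cell-2-4 with 229.9 FPKM and PA 4-cell-3-1 with 161 FPKM, while 4 of the other 5 blastomeres stayed below 0.1 FPKM. The log2 change of PGK1 in the same step of IVF embryos was -0.90, and the difference of the steps was -5.70 (adjusted p = 0.16). ATF1, a transcription factor of the CREB family, showed the same kind of unevenness, with 146 FPKM in PA 4-cell-1-3, 310.0 FPKM in PA 4-cell-3-3 and at most 18.4 FPKM in the others (log2 change 4.81, adjusted p = 0.029). The ATF1 call was lost without any of PA 2-cell embryos 2 or 3 or PA 4-cell embryos 1 or 3, with adjusted p of 0.0926 to 0.111. The genes of the X chromosome were 4 of the 93 risers (4.30%) and 16 of the 507 fallers (3.16%), beside 3.54% of all genes tested.

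NANOG and GDF3, within one stretch of chromosome 5, were both among the risers with a symbol, and the stretch was looked at after these values were seen. NANOG is a homeobox factor of pluripotent cells (5, 62932575 to 62939035, plus strand). It had 3.65, 0.76 and 0.0966 FPKM in 2-cell embryos and 74.1, 197 and 73.9 FPKM in 4-cell embryos, with a log2 change of 5.64 (adjusted p = 0.0074). It lay between 74.1 and 264 FPKM in 6 of 7 blastomeres and at 4.71 FPKM in PA 4-cell-3-4. GDF3, a ligand of the TGF-beta family (62835979 to 62841665, minus strand), had 8.52, 81.9 and 80.9 FPKM in 4-cell embryos (4.87, adjusted p = 0.017). It was uneven among blastomeres, with 218 FPKM in PA 4-cell-2-3, 242 FPKM in 3-1 and 26.9 FPKM in 2-2. In PA 4-cell-2-4, 3-3 and 3-4 it was at most 0.457 FPKM. Its call was lost without PA 2-cell embryo 2 or 3 or PA 4-cell embryo 2 or 3, at adjusted p of 0.0512 to 0.0576. APOBEC1, beside GDF3, did not enter the test and had 276 FPKM in PA 4-cell-2-2, 92.7 FPKM in PA 4-cell-3-3 and at most 0.14 FPKM in the other 5. The nearby genes RIMKLB, MFAP5 and NECAP1 were not called, with log2 changes of -0.03, -0.01 and -1.01. ENSSSCG00000022925, named SLC2A3 in RefSeq, was not called either, with a log2 change of 2.22 (adjusted p = 0.25). It had 59.8 FPKM in PA 4-cell-2-2, 21.5 FPKM in 2-4, 7.61 FPKM in 3-4 and at most 0.0381 FPKM in the others. ENSSSCG00000035531 did not enter the test and had 89.7 FPKM in PA 4-cell-2-3, 1.80 FPKM in 2-2 and 0 in the others.

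**Figure D2:**
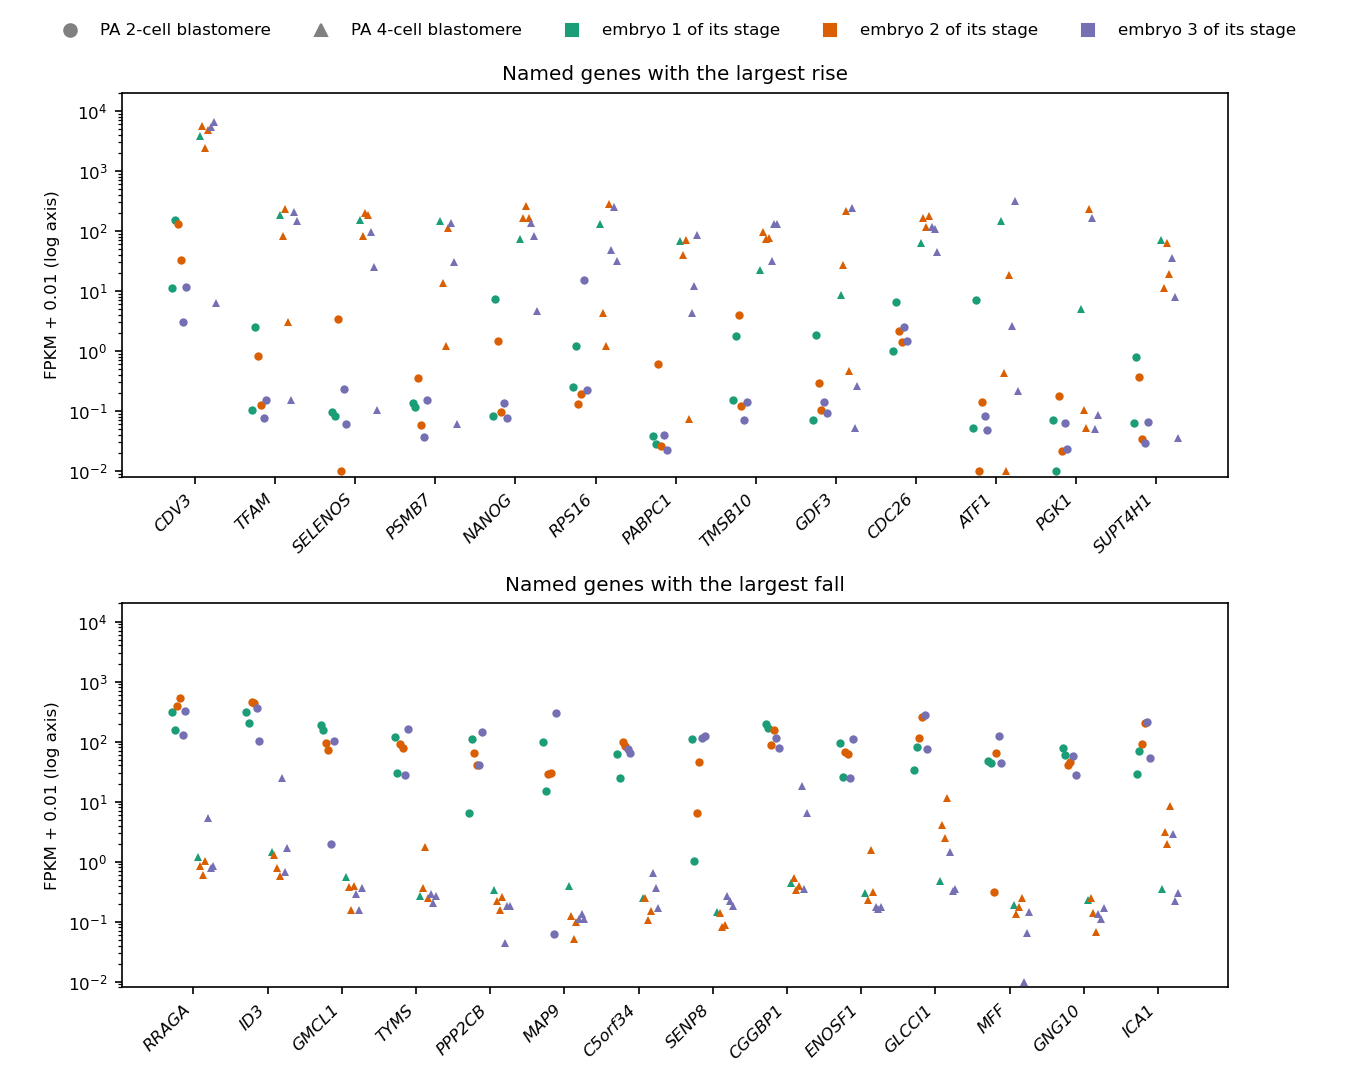
FPKM + 0.01 on a log axis in each of the 13 PA blastomeres (circles 2-cell, triangles 4-cell, coloured by embryo of its stage) for named genes of the largest rise (13 shown) and of the largest fall (14 shown). CDV3 and NANOG were high in 6 of the 7 triangles and low in PA 4-cell-3-4, whereas RRAGA was at most 5.28 FPKM in all 7.

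Of the 93 risers 71 have a symbol, and the others are known by their Ensembl number alone. ENSSSCG00000002968 (6, 47787570 to 47793873, minus strand) rose most of all genes, from 0.664 ± 0.455 to 287 ± 75.4 FPKM (log2 change 7.43, adjusted p = 2.75e-06). ENSSSCG00000034113 (9, 25500470 to 25503075, minus strand) was the most abundant of them, with 15.2, 13.2 and 2.46 FPKM in 2-cell and 698, 788 and 1385 FPKM in 4-cell embryos (6.62, adjusted p = 0.00037). It went on to 4897 FPKM in the PA 8-cell embryo. ENSSSCG00000013607 rose by 7.19, and ENSSSCG00000003444 and ENSSSCG00000039417, both on chromosome 6 between 72729978 and 72854956, rose by 6.42 and 5.88. The latter pair was at 0.0191 and 0.165 FPKM in the PA 8-cell embryo, so that their high level was seen at the 4-cell stage.

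The deepest fall was that of RRAGA, a small GTPase that passes amino acid signals to mTORC1. It had 235, 463 and 223 FPKM in 2-cell embryos and 1.18, 0.811 and 2.29 FPKM in 4-cell embryos (log2 change -6.95, adjusted p = 4.2e-06). ID3, an inhibitor of basic helix-loop-helix factors, fell from 314 ± 117 to 3.75 ± 4.49 FPKM (-6.40), and GMCL1, the germ cell-less homologue, from 102 ± 62.6 to 0.367 ± 0.155 FPKM (-6.07). Among the 14 deepest falls with a symbol, the 2-cell embryos did not overlap the 4-cell embryos in any gene, which is how they were chosen. PPP2CB, a catalytic subunit of protein phosphatase 2A, fell from 67.4 ± 21.5 to 0.216 ± 0.0987 FPKM (-5.77). MAP9, a microtubule-associated protein of the spindle, fell by 5.76 on the log2 scale, a call lost without PA 2-cell embryo 3 (adjusted p = 0.0563). C5orf34 (-5.73), SENP8 (-5.64), which removes NEDD8, CGGBP1 (-5.62), which binds CGG repeats, MFF (-5.47), of mitochondrial fission, and GNG10 (-5.47), a G protein subunit, completed the genes that overlap no other gene. All of these genes were at most 24.4 FPKM in every 4-cell blastomere.

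TYMS, thymidylate synthase, and ENOSF1 lie on opposite strands and overlap at their ends, and they fell by nearly the same amount, TYMS from 83.9 ± 10 to 0.428 ± 0.306 FPKM (-5.91) and ENOSF1 from 64.6 ± 3.66 to 0.382 ± 0.274 FPKM (-5.58). GLCCI1 (-5.58) and ICA1 (-5.33) also overlap on opposite strands, and the span given for GLCCI1 also overlaps RPA3 and UMAD1, so that its symbol is uncertain. Whether the reads were counted by strand is not given in the sources used here, so genes that overlap cannot be told apart.

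Levels differed among sister blastomeres, for the risers as for the genes tested at large. Of the 93 risers, 16 were above all 6 of the 2-cell blastomeres in all 7 of the 4-cell blastomeres, 32 in 6, 19 in 5 and 26 in 4 or fewer. Between 51 and 75 risers reached 10 FPKM in a 4-cell blastomere, with the fewest in PA 4-cell-3-4 and the most in PA 4-cell-1-3, against 7 to 16 in the 2-cell blastomeres. Of the 507 fallers, 201 were below all 6 of the 2-cell blastomeres in every 4-cell blastomere and 140 in 6 of 7. Over all genes tested, 19 were above and 323 below all of the 2-cell blastomeres in every 4-cell blastomere. Between 323 and 355 fallers were at 10 FPKM or more in a 2-cell blastomere, and 21 to 70 in a 4-cell blastomere. The choice of the genes on their embryo means favours such counts, so they are a description.

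Among risers with an embryo mean of at least 10 FPKM, all 3 sisters reached 10 FPKM for 31 of 77 genes (40.3%) in 4-cell embryo 2 and for 26 of 75 (34.7%) in embryo 3. Over all tested genes with such a mean the shares were 15.5% and 12.5%, and over fallers with such a mean 23.3% and 11.5%. Sister blastomeres were less alike at the 4-cell stage over the whole profile too, with r of log2(FPKM + 1) at 0.669 to 0.729 in the 3 pairs of 2-cell sisters and at 0.386 to 0.462 in the 6 pairs of 4-cell sisters. The 4-cell blastomeres also had fewer reads on genes, and the part of depth in this unevenness was not tested. The methods name no molecular identifiers for the amplified cDNA.

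**Figure D3:**
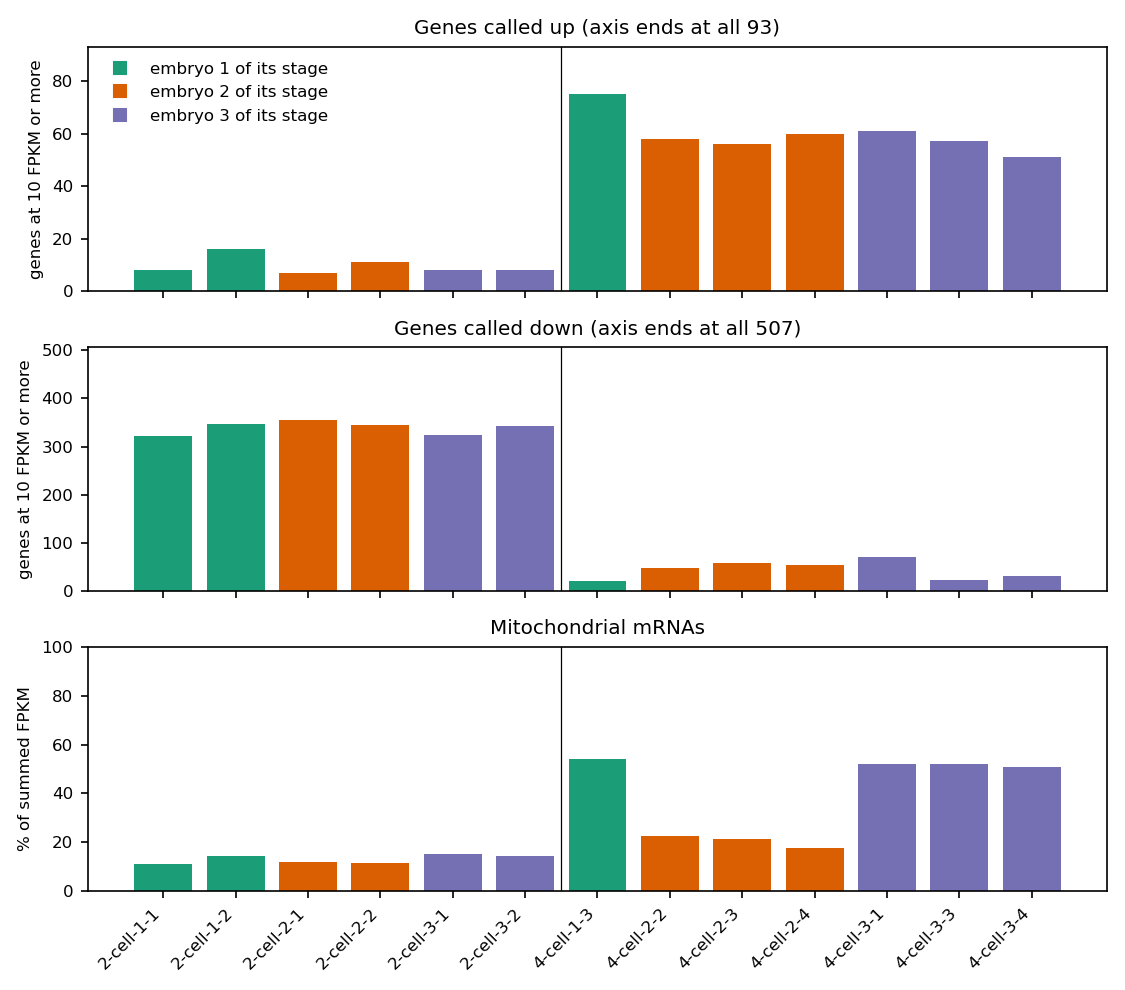
For each of the 13 PA blastomeres, coloured by embryo of its stage, the bars give the number of the 93 risers at 10 FPKM or more, the same for the 507 fallers, and the share of summed FPKM in mitochondrial mRNAs in percent. The 2-cell blastomeres hold 7 to 16 risers and 323 to 355 fallers, the 4-cell blastomeres 51 to 75 and 21 to 70.

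The number of detected genes (FPKM above 0) was lower at the 4-cell stage, at 6562 ± 318 per 2-cell embryo and 5514 ± 248 per 4-cell embryo, and no embryo overlapped between the stages. The difference of -1048 had an exact permutation p of 0.1 (two-sided), the smallest that 3 embryos against 3 allow. After thinning each cell to 7400000 reads it was -787, and for genes of at least 1 FPKM it was -1760. The share of the mitochondrial mRNAs was 13.1% ± 1.58 in 2-cell and 42.0% ± 18.7 in 4-cell embryos, a difference of 29.0 percentage points (exact permutation test, two-sided, p = 0.1). All 13 of these mRNAs were higher at the 4-cell stage, 12 of them at an unadjusted p below 0.05, and 4 were called up. COX2 went from 1005, 694 and 999.8 FPKM to 7071, 2168 and 10033 FPKM (2.59, adjusted p = 0.0071), followed by CYTB (2.44), COX3 (2.41) and ATP6 (2.23), of which the last 2 overlap each other. Since FPKM are relative, a change of a gene and a change of the total RNA of a blastomere cannot be told apart. The summed FPKM of nuclear genes was 95693 to 114109 in 2-cell and 94850.4 to 104866 in 4-cell blastomeres, while the sum over all genes was 108155 to 132982 and 127121 to 222614. With nuclear genes rescaled to the same total, 107 genes were called up (1.35%) and 541 down (6.80%).

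Transcription factors of the early embryo were read from a list with 18 tested members. Among all genes tested, 1.16% were called up and 6.31% down. NANOG rose and OTX2, a homeobox factor stored in oocytes, fell from 80.5, 37.7 and 104 FPKM to 0.25, 13.2 and 18.5 FPKM (-3.30, adjusted p = 0.020). OTX2 was not called under median-ratio scaling (-0.78). The other 16 were not called, and in the whole list 6 were higher and 1 lower at an unadjusted p below 0.05. MYC had 0.357 ± 0.502 FPKM in 2-cell and 113 ± 171 FPKM in 4-cell embryos (4.13, adjusted p = 0.10), KLF17 had 1.61 ± 2.72 and 49.9 ± 63.7 FPKM, and DPPA2 had 0.315 ± 0.415 and 15.0 ± 14.3 FPKM. SALL4 was at 32 ± 23.6 and 62 ± 29.4 FPKM. On the other side, the log2 change was -1.07 for SALL2, -0.80 for NFYB and -0.16 for KLF5, and ESRRB and ZFP42 were listed at 0 in all 6 embryos. The median log2 change of the list was 0.69, beside -0.45 for all genes.

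Of 26 tested oocyte factors, 4 fell, none rose and 22 were not called, beside 1.16% called up and 6.31% called down among all genes. At an unadjusted p below 0.05 in limma, 0 were higher and 7 lower. BTG4, which brings the CCR4-NOT deadenylase to maternal mRNA, fell from 617, 692 and 765 FPKM to 65.3, 235 and 119.8 FPKM (-2.48, adjusted p = 0.0046), but its change was 0.53 under median-ratio scaling, and it overlaps C11orf88. ZAR1L, a relative of the zygote arrest protein, fell from 24.5 ± 6.18 to 0.105 ± 0.0172 FPKM (-4.50). CPEB1, which controls cytoplasmic polyadenylation, fell by 3.39 on the log2 scale. MOS, the kinase of metaphase arrest, fell from 17.6 ± 10 to 0.0718 ± 0.0153 FPKM (-3.98). Under median-ratio scaling ZAR1L was still called, while CPEB1 (-1.60) and MOS (-2.56) were not. DNMT1, the maintenance DNA methyltransferase, was at 1042 ± 211 and 769 ± 219 FPKM, IGF2BP3 at 930.4 ± 85.6 and 740.0 ± 82.1 FPKM and UHRF2 at 485 ± 36.9 and 337 ± 83.9 FPKM, none of them called. The median of the list was -0.74 and turned to 1.00 under median-ratio scaling. In the list of mRNA deadenylation and decay, BTG4 was the sole call among 36 members (median -0.41, and 0.92 under median-ratio scaling), with 2 higher and 4 lower at an unadjusted p below 0.05.

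The machinery of transcription and RNA processing gave few calls, beside 1.16% called up and 6.31% called down among all genes. SUPT4H1 was the only one of 44 tested members of RNA polymerase II, its elongation factors and Mediator that was called, with 2 higher and 5 lower at an unadjusted p below 0.05. Of 70 splicing factors and hnRNPs, 3 rose and none fell, with 9 higher and 5 lower at an unadjusted p below 0.05. HNRNPA2B1 went from 1.91, 5.6 and 3.16 FPKM to 33.3, 60.2 and 63.3 FPKM (3.57, adjusted p = 0.0040), PRPF38A, of the tri-snRNP, rose by 4.36 and DHX15, a helicase that takes the spliceosome apart, by 3.22. PRPF38A overlaps ORC1 and HNRNPA2B1 overlaps ENSSSCG00000016711. The medians were -0.39 and -0.06, and under median-ratio scaling 0.86 and 1.66.

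The counts for genes of translation stand beside 1.16% called up and 6.31% called down among all genes. Of 60 ribosome biogenesis genes, 5 fell, namely UTP11, GAR1, DDX18, NPM1 and RRN3, and none rose. At an unadjusted p below 0.05 in limma, 2 were higher and 14 lower, and the median was -0.19 (0.27 under median-ratio scaling). Under median-ratio scaling 4 members of that list were called up and none down. NPM1, the abundant nucleolar chaperone, had 42.9, 35.0 and 63.0 FPKM in 2-cell and 10.8, 14.1 and 9.66 FPKM in 4-cell embryos (-1.91, adjusted p = 0.044, and 1.52 under median-ratio scaling). Of 38 translation factors, EIF4H (-4.22) and EIF4E, the cap-binding protein (-3.19), fell and none rose. Neither EIF4H (-2.20) nor EIF4E (-1.01) was called under median-ratio scaling. In that list 3 were higher and 6 lower at an unadjusted p below 0.05, and the median was 0.07. Of 60 ribosomal proteins RPS16 rose and RPL5 fell (-2.80), and the median of that list was 0.25. Of 49 mitochondrial ribosomal proteins, MRPS14 (-4.0), MRPL43 (-3.95) and MRPS24 (-3.78) fell and none rose, with 0 higher and 8 lower at an unadjusted p below 0.05 and a median of -0.26 (0.01 under median-ratio scaling). NDUFA2 was the one called member of 21 complex I genes, with a rise of 3.18, and it overlaps TMCO6. The median of the complex I genes was -0.21.

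Among 43 cell cycle genes, CHEK1, the checkpoint kinase, fell by 3.29 on the log2 scale, FBXO5, an inhibitor of the anaphase-promoting complex, by 2.54 and BUB3, of the spindle checkpoint, by 2.32 (1.48 under median-ratio scaling). FBXO5 was not called under median-ratio scaling (-0.10). The list had none called up, with 2 higher and 11 lower at an unadjusted p below 0.05. Its median was -0.94 (0.83 under median-ratio scaling). The calls in this list and the next ones stand beside 1.16% called up and 6.31% called down among all genes. Of 32 heat shock proteins and chaperonins, 5 fell, namely CCT2, HSP90B1, DNAJA2, DNAJA1 and DNAJC2, and none rose. At an unadjusted p below 0.05 in limma, 4 were higher and 9 lower, and the median was -0.20 (1.06 under median-ratio scaling). Under median-ratio scaling 7 members of that list were called up and none down. DNAJA2 went from 461, 298 and 471 FPKM to 25.7, 135 and 19.9 FPKM (-3.25, adjusted p = 0.0042), with 0.60 under median-ratio scaling, and it overlaps GPT2. PSMB7 was the one called gene of 34 proteasome genes, whose median was -0.40 (0.79 under median-ratio scaling). Of 157 ZNF genes, ZNF207 rose (2.59) and ZNF449 (-5.17), ZNF567 (-4.19), ZNF703 (-3.59) and ZNF451 (-3.30) fell, with a median of -0.40.

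No gene of DNA methylation and H3K4 methylation was called in limma among 20 tested, with 1 higher and 2 lower at an unadjusted p below 0.05 and a median of -0.37 (1.55 under median-ratio scaling). KDM5B, a demethylase of H3K4, was at 37.3 FPKM in PA 4-cell embryo 1 and at most 0.833 FPKM in the other 5 embryos (2.04, adjusted p = 0.21). RBBP5, of the H3K4 methyltransferase complexes, had 62.3, 49.6 and 73.0 FPKM and then 12.3, 25.5 and 19.9 FPKM (-1.67, adjusted p = 0.084), with 1.52 under median-ratio scaling. Parthenotes lack the paternal copy of imprinted genes, and of 8 tested genes expressed from that copy none was called, with 0 higher and 3 lower at an unadjusted p below 0.05 and a median of -1.12 (-0.29 under median-ratio scaling). PLAGL1 was at 20.2 ± 12.1 and 2.76 ± 4.28 FPKM (-2.94, adjusted p = 0.0501), ZIM2 at 4.85 ± 3.83 and 0.0142 ± 0.0177 FPKM and PEG10 at 8.26 ± 9.28 and 1.46 ± 1.43 FPKM. IGF2R, the 1 tested gene of a separate list of imprinted genes expressed from the maternal copy, was not called. It was at 0 in all 2-cell embryos and at 0, 0.768 and 0.0508 FPKM in 4-cell embryos. None of the 6 tested cumulus and granulosa cell markers, the 4 tested lineage markers of the blastocyst or ODF2, the tested sperm marker, was called in limma, and at an unadjusted p below 0.05 a single one was higher and a single one lower, both in the cumulus and granulosa list. The row named VCAN, whose span overlaps XRCC4 of RefSeq on the same strand, was at 6.21, 3.3 and 5.81 FPKM and then at 0.557, 0.0176 and 0.211 FPKM (-2.26, adjusted p = 0.053). SHAS2 of the same list went the other way, from at most 0.0107 FPKM to 0.0113, 10.7 and 1.80 FPKM (1.68, adjusted p = 0.18). Under median-ratio scaling SHAS2 was called up (3.74, adjusted p = 0.029 in limma). Of the 6 tested markers of that list, 2 were higher and 3 lower at the 4-cell stage.

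**Figure D4:**
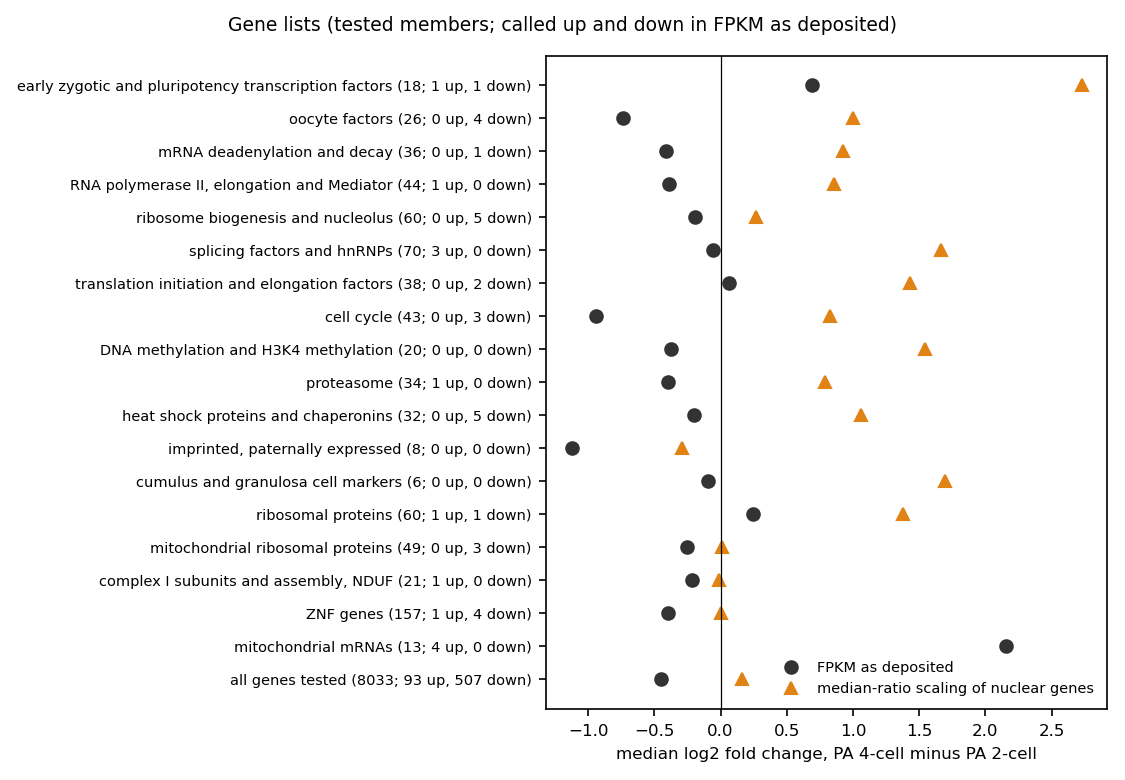
Median log2 change from PA 2-cell to PA 4-cell of the tested members of each gene list, in FPKM as deposited (circles) and with median-ratio scaling of nuclear genes (triangles), with the number tested and called beside each name. The mitochondrial mRNAs have a median of 2.15, and every other list with both values lies further to the right under median-ratio scaling.

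Several abundant transcripts of the study's figures were among the fallers. ENSSSCG00000000296 had 6087, 3617 and 7414 FPKM in 2-cell and 1936, 2233 and 669.5 FPKM in 4-cell embryos (-1.94, adjusted p = 0.020), but under median-ratio scaling it was called up, by 1.66 (adjusted p = 0.034). FAM151B went from 952 ± 124 to 90.3 ± 133 FPKM (-4.91) and ENSSSCG00000004151 from 595, 458 and 693 FPKM to 4.11, 158 and 1.34 FPKM (-5.54). Under median-ratio scaling their changes were -1.50 and -2.04, and neither was called. ARMC1 had 487, 662 and 498 FPKM and then 2.59, 119 and 279 FPKM (-3.46, adjusted p = 0.034), with a change of 0.20 under median-ratio scaling. ENSSSCG00000037674 (-4.03) and ENSSSCG00000004489 (-3.62) overlap each other and cannot be told apart. Under median-ratio scaling they stood at -0.74 and -0.63 and were not called.

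The span of the genes was read from the annotation. The risers had a median span from start to end of 12948 bases, against 40750 for fallers and 37780 for all genes tested, and 40.9% of risers spanned less than 10 kb, against 12.8% and 16.9%. Their median exon length was 3411 bases, against 3982 and 4194. Among the 89 genes called up under all 3 scalings the median span was 13978 bases and the share under 10 kb 38.2%. All but 1 of the risers were protein-coding.

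At the PA 8-cell stage, with 3 blastomeres of 1 embryo and therefore no test, 66 of the 93 risers were above all PA 2-cell embryos and 14 below all of them, and of the 507 fallers 398 were below and 51 above. Over all 8033 genes 2111 were above and 3234 below. The median level was 12.6 FPKM for risers and 0.489 FPKM for fallers. CDV3 was at 3889 FPKM, PSMB7 at 149.6 FPKM and CDC26 at 541 FPKM there, while PGK1 was at 0.0086 FPKM. RRAGA was at 83.9 FPKM and GMCL1 at 119.9 FPKM, so that these fallers were high again in that embryo. In the PA 1-cell embryos the medians were 0.524 FPKM for risers and 18.0 FPKM for fallers, beside 0.993 and 20.1 FPKM at the 2-cell stage.

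The genes of the IVF step were then read in PA cells. They were called on IVF embryos, although in the same fit, whose estimate of the spread includes the PA embryos. There, 46 genes rose (0.573%) and 52 fell (0.647%) from the IVF 2-cell to the IVF 4-cell stage. Of the 46, 22 were called up and none down in PA embryos, against 1.16% of all genes called up, and 37 were higher, with a median log2 change of 2.78 in PA and 4.19 in IVF embryos. Of the 52, 33 were called down in PA embryos, against 6.31% of all genes, none was called up, and the median was -3.38. The median log2(FPKM + 1) of the 46 genes was 0.03 to 0.64 in PA 2-cell blastomeres and 0.84 to 3.31 in PA 4-cell blastomeres, with the lowest in PA 4-cell-3-4 and the highest in PA 4-cell-2-2. The left-out columns were at 0.54 and 0.63. With a wider choice of 218 genes, at a log2 change of at least 2 and an unadjusted p below 0.01 in IVF embryos, 162 were higher in PA embryos and the median change was 1.07. The median level of these 218 genes was 0.02 to 0.22 in PA 2-cell and 0.07 to 0.72 in PA 4-cell blastomeres on the same log2 scale, and these ranges overlap. The difference of the stages in that median was 0.06, against 2.29 for the 46 genes.

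Some IVF 4-cell blastomeres resembled earlier stages. IVF 4-cell-1-2, 1-4, 3-2 and 3-3 had a median r of 0.458 to 0.697 with the IVF 1-cell and 2-cell cells and of 0.394 to 0.429 with the other IVF 4-cell blastomeres, and IVF 4-cell-1-1 had 0.532 and 0.363. The first 4 of these were left out in an added setting, taken up once the values had been seen. The step itself was tested for a difference between IVF and PA embryos. It was higher in IVF embryos for 6 genes (0.0747%) and lower for none, with 547 and 130 genes at an unadjusted p below 0.05 in limma. All 6 fell in PA embryos and changed less in IVF embryos, and none of the 93 risers was called different.

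RRAGA had 394, 113 and 179 FPKM in IVF 2-cell embryos and 61.1, 42.5 and 199.5 FPKM in IVF 4-cell embryos, a step of -1.30 against -6.95 in PA embryos (difference 5.65, standard error 0.91, adjusted p = 0.024). GMCL1 differed by 4.99 (adjusted p = 0.024), with 40.3, 48.5 and 72.8 FPKM in IVF 4-cell embryos and 0.545, 0.299 and 0.258 FPKM in PA 4-cell embryos. SUMO2, a small protein that is joined to others, differed by 5.09, with 43.8, 20.4 and 36.5 FPKM and 0.35, 0.102 and 0.0835 FPKM. In these genes all IVF 4-cell embryos were above all PA 4-cell embryos. PPP2CB differed by 4.78, PAPSS1, which makes the sulfate donor PAPS, by 5.07 and ENSSSCG00000035662 by 6.18, each at an adjusted p of 0.035, the latter pair named after their values were seen. Under median-ratio scaling 19 genes were called, of which GMCL1 (adjusted p = 0.044) and SUMO2 (adjusted p = 0.032) are in common, while RRAGA, PPP2CB, PAPSS1 and ENSSSCG00000035662 had adjusted p of 0.0605 to 0.151. Without the 4 IVF blastomeres 3 genes were called, of which GMCL1 was the one in common (5.26, adjusted p = 0.036), while SUMO2 stood at 5.55 (adjusted p = 0.062), RRAGA at 3.57 (adjusted p = 0.68) and PPP2CB at 1.92 (adjusted p = 0.77). With any 1 of several embryos left out the calls were lost, with the highest adjusted p at 0.133 to 0.200 over the 6 genes, and without IVF 4-cell embryo 1 the count was 132, without embryo 2 46 and without embryo 3 15.

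**Figure D5:**
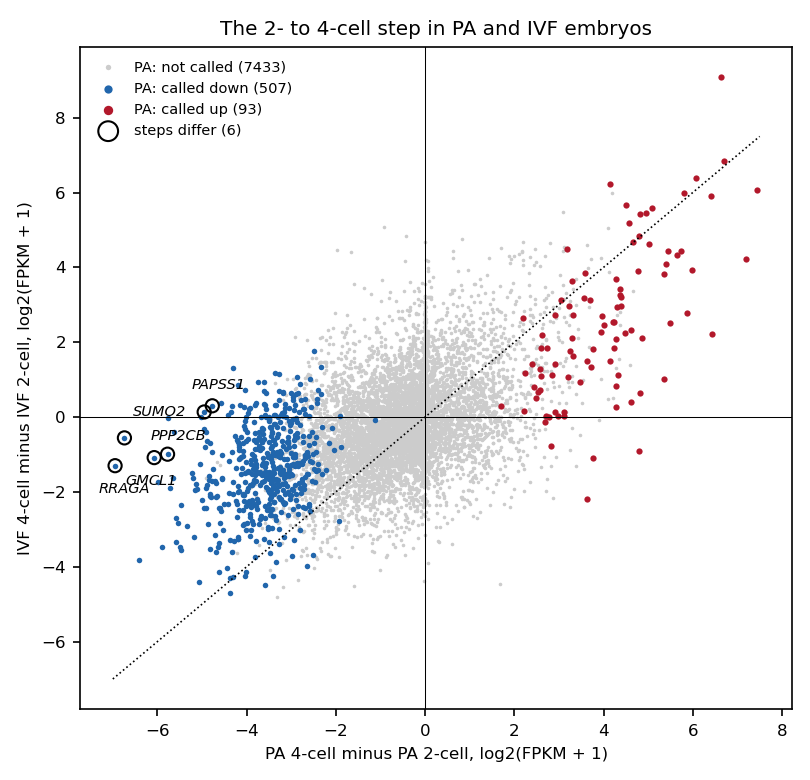
Log2 change from the 2-cell to the 4-cell stage in PA embryos (x axis) and in IVF embryos (y axis) for 8033 tested genes, with equal changes on the dotted line. The 6 circled genes fell in PA embryos by 4.77 to 6.95 on the log2 scale, and their IVF changes lie between -1.30 and 0.30.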

How the data were processed

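The authors lysed single cells, amplified cDNA with Ansuper-seq (transcripts with or without polyA tails), aligned the cleaned reads with HISAT2 (genome Sscrofa11.1), used StringTie for transcripts and HTSeq for counts, and deposited FPKM for 15351 genes in 42 cells. The labels describe another extraction (Trizol, total RNA libraries of oocytes), and the procedure of the study's methods was taken to hold. Versions and strandedness are not given in the sources used here.

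Reads on genes were recovered from the FPKM steps (whole within 0.01 reads for 99.0% of expressed genes) and used for depth alone, since amplified reads do not count molecules and the spread between embryos gives the precision. Embryos were the replicates. FPKM were averaged over the blastomeres of each embryo and taken as log2(FPKM + 1), so that fold changes of low genes are understated. Genes of at least 1 FPKM in at least 3 cells (8033) were fitted with limma 3.58.1 (R 4.3.3) with a mean-variance trend over all 20 embryos of 8 groups, which share 1 estimate of the spread. Genes with a Benjamini-Hochberg adjusted p below 0.05 and at least a 2-fold change were called. The median standard error of a log2 change was 0.84. Single values were tested by exact permutation over embryos, two-sided, in Python 3.11.15 with numpy 2.4.6 and pandas 2.3.3, and figures were drawn with matplotlib 3.10.9. Shares, list medians and correlations between cells are descriptions without a test.

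Named are the 14 genes with a symbol of the largest rise and the 14 of the largest fall without overlap of embryos, called genes of the study's figures, up to 4 called members of a list in each direction by adjusted p (members without a call where a list has none) and the 4 genes whose steps differ most clearly. Other genes, among them those without a symbol, those beside NANOG and uncalled members of lists with a call, were named after their values were seen. The members, lists and tests were chosen with earlier results of these data known. Of 2799 genes without a symbol, 817 took one from a gene name table. Promoters were cut from the RefSeq genome of the same build, at the gene starts in the deposited table. One gene of the study's figures and one of the genes with the largest rise are not reported here. The alternatives were other pseudocounts, filters, scalings, averages over blastomeres, sets of cells, moderations and groups in the fit, a correlation within embryos, a block of embryo numbers and each embryo left out in turn.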

Additional observations from a re-analysis of the deposited data

Results flagged for a closer look

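The 2-cell to 4-cell step differed between IVF and PA embryos, by the limma test of the difference itself, in 6 genes, all lower at the PA 4-cell stage. The step of IVF minus that of PA embryos was 5.65 on the log2 scale for RRAGA, 4.99 for GMCL1, 4.78 for PPP2CB, 5.09 for SUMO2, 5.07 for PAPSS1 and 6.18 for ENSSSCG00000035662. Single IVF 4-cell blastomeres were uneven for these genes. RRAGA was at 0.511 and 0.251 FPKM in IVF 4-cell-1-1 and 3-4 and at 12.6 to 535 FPKM in the other 7, while SUMO2 was at 0.433 FPKM in 3-2 and at 3.59 to 86.6 FPKM in the others. Leaving out IVF 4-cell-1-2, 1-4, 3-2 and 3-3, but not 1-1, which also resembled earlier stages, kept the call of GMCL1 alone among the 6. A search of 12 groups of values for a single outlying cell flagged no blastomere. PA 4-cell-3-4 was nonetheless far below the other PA 4-cell blastomeres for CDV3 and NANOG, as given above.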

How the results depend on the processing

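The direction of the nuclear risers held under all 3 scalings, but the counts and the balance of rise and fall depended on the processing. Against 93 genes up, 507 down and 6 with differing steps, median-ratio scaling gave 610, 107 and 19, a fit of only the groups compared 14, 38 and 0, all 9 labelled PA 4-cell blastomeres 31, 1 and 0, and PA 4-cell embryo 2 alone, the one with the low mitochondrial share, 276, 271 and 125, where its spread is assumed to be that of the other groups. Without both cells of each near-identical pair 334 genes fell and 3 differed, with the mean of log2 values 790 and 0, with a pseudocount of 0.1 819 and 12, and with one of 5 279 and 0. A correlation within embryos left 0 differing steps, robust moderation 2, and leaving out the 4 IVF blastomeres 3, with 70 genes up and 360 down. The cause of these moves was not tested. Under median-ratio scaling the sign turned for ARMC1 (0.20), BTG4 (0.53), ENSSSCG00000000296 (1.66), NPM1 (1.52), BUB3 (1.48) and DNAJA2 (0.60). Of the 75 named genes followed under that scaling, 22 more lost the call and 47 kept it. The median level of IVF risers rose by 2.29 in PA blastomeres with 46 genes and by 0.0626 with 218.

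With 1 embryo left out, 66 to 173 genes were called up, 376 to 651 down and 0 to 132 with differing steps, the highest counts without PA 4-cell embryo 1, PA 4-cell embryo 2 and IVF 4-cell embryo 1, respectively. The fall in detected genes lay between -1220 and -906 and the gain in mitochondrial share between 23.0 and 39.8 percentage points. Of 1651 values of named genes under other settings, 1328 stayed past the threshold in the same direction, 317 lost it and 6 reversed.

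With the embryo number as a replicate block, 96 genes were called up, 489 down and 0 with differing steps, and 90 and 473 of the genes called without it were kept. The numbers are not stated to link embryos of different stages, and deviations of same-numbered embryos had r of -0.014, 0.0093 and -0.0059, so no pairing was used. With 3 embryos a side, 1 of them a single blastomere, a median standard error of 0.84 limits what could be called, and a gene without a call is not shown to be unchanged.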
